A study of Solanum lycopersicum with 6 samples.

Results

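DNA methylation around 10 tomato genes of carotenoid synthesis was compared between embryos with a knockout of SlNRPD1 (nrpd1) and wild-type (WT) embryos. The genes were chosen by their Solyc identifiers, in the order PSY1, PSY2, PDS, ZISO, ZDS, CRTISO, LCYB, CYCB, LCYE and CHYB1, and every region assigned to them in the authors' lists of differentially methylated regions was taken. These were 23 of 132092 listed regions, and they belonged to 6 of the 10 genes. The lists name 27473 genes, each with a region, but the number of annotated genes was not available. Whether 6 of 10 is a usual share could therefore not be computed. Both genotypes were of the dwarf cultivar Micro-Tom, embryos were taken 21 days after flowering, and each genotype had 3 bisulfite libraries. The labels do not say if the libraries were made from different plants, or if the knockout was 1 line or several. NRPD1 is the catalytic subunit of Pol IV, the plant RNA polymerase whose transcripts are cut into small RNAs that direct DNA methylation, and the series asks about methylation outside the CG context in embryo development.

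Carotenoids are built in plastids from geranylgeranyl diphosphate. Phytoene synthase joins its molecules into colourless phytoene, desaturases and isomerases turn phytoene into red lycopene, and cyclases close the ends of lycopene to give the carotenes. Hydroxylation of carotenes gives xanthophylls, which protect the photosynthetic apparatus and are the source of abscisic acid, a hormone of seed maturation and dormancy. In tomato the pathway is best known from the fruit, where PSY1 and the chromoplast cyclase CYCB act, while PSY2 and LCYB serve green tissue.

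Each listed region carried the authors' mean methylation level per genotype, in 1 of 3 contexts, CG, CHG or CHH (H stands for A, C or T). There were no values for single libraries and read depth is unknown, so no error between libraries and no test between genotypes can be attached to any value below. A loss here means a listed region with a lower mean in nrpd1, and differences are given in percentage points. The authors' promoters reached 2 kb upstream of the annotated transcription start. Neither the tissue nor the knockout could be checked from methylation regions, and RNA levels were not analysed here.

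Every region listed for these genes was less methylated in nrpd1. The 23 losses were 13 in CHH, 7 in CHG and 3 in CG, and there were 0 gains. The share of losses was 100%. Its Wilson 95% interval (85.7 to 100) treats the 23 regions as independent, but several overlap and all come from 6 genes. The interval is therefore no measure of error here. Over all listed regions the share of losses was 90.6%. By context, that share over the whole tables was 95.8% in CHH, 88.0% in CHG and 67.7% in CG, so a set of only losses is close to what the CHH and CHG tables hold in general. Of the 23 regions, 12 lay in promoters or gene bodies and 11 in distal intergenic sequence, which held 58.2% of all listed regions.

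**Figure D1:**
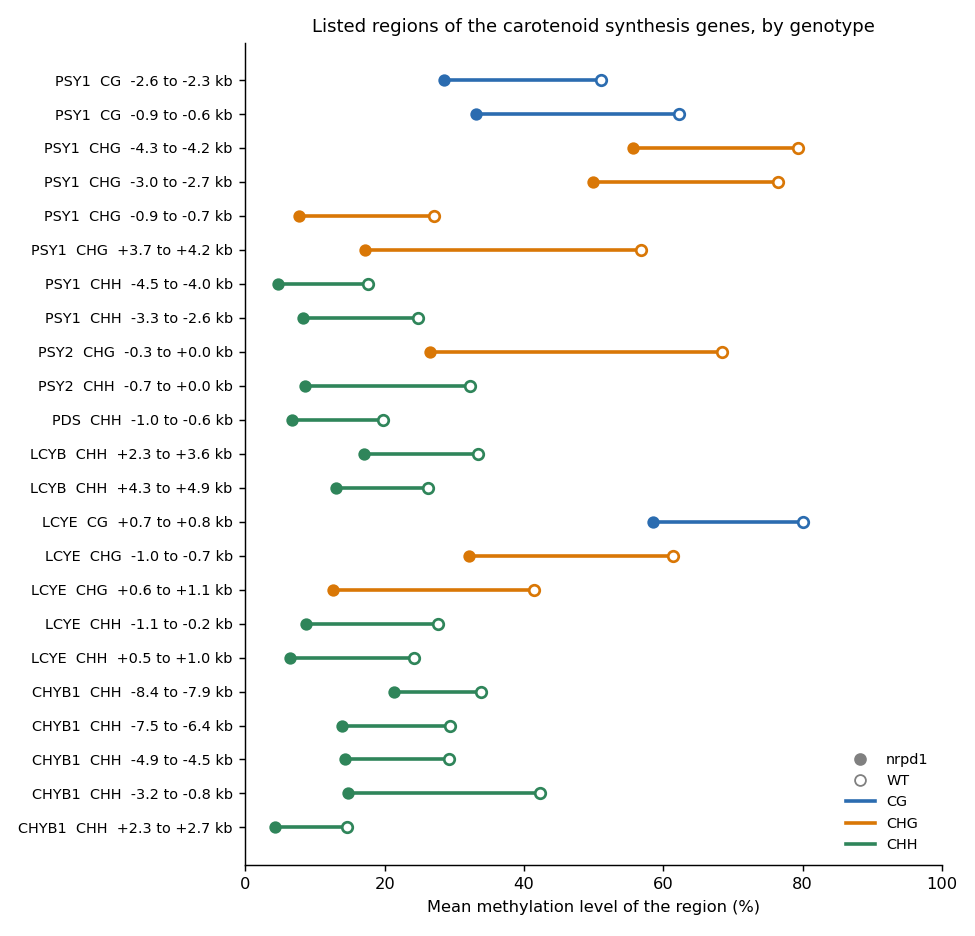
Mean methylation level (%, horizontal axis) of the 23 listed regions, 1 line each, with nrpd1 as filled and WT as open circles and the context by colour. Labels give the gene, the context and the distance from the transcription start in kb (minus is upstream), and in all 23 regions the nrpd1 circle lies left of the WT circle.

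The genes differed in which contexts were involved. In promoter or body, 5 of the 6 genes with a region had a loss in some context, against 79.0% of the 27473 genes that the tables name. Here, 4 had a CHH loss (PSY2, PDS, LCYE and CHYB1), 3 had a CHG loss (PSY1, PSY2 and LCYE) and 2 had a CG loss (PSY1 and LCYE). Over all named genes these shares were 73.2% for CHH, 43.7% for CHG and 13.4% for CG. LCYE had losses in all 3 contexts, as did 8.25% of named genes. PSY2 had CHH and CHG losses without CG, as did 31.1%, while PDS and CHYB1 had CHH losses alone, as did 30.8%. PSY1 had CG and CHG losses without a listed CHH loss in promoter or body, a combination found in 194 named genes (0.706%). This combination was not chosen in advance. LCYB had distal regions only, as did 18.1% of named genes when downstream flanks are counted as distal.

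Phytoene synthesis is the committed step, and its fruit enzyme gene PSY1 (Solyc03g031860, chr3:4234654-4238638, plus strand, SL4.0) had 8 regions, more than 81.3% of named genes had. Its promoter lost CG and CHG methylation over nearly the same sequence. The CG region (chr3:4233773-4234093, 561 to 881 bp upstream, 17 CG sites) had a level of 33.1% in nrpd1 and 62.2% in WT. The CHG region (chr3:4233737-4234002, 652 to 917 bp upstream, 13 CHG sites) had 7.75% in nrpd1 and 27.1% in WT. The losses were 29.2 points in CG and 19.3 points in CHG, and 53.2% and 28.6% of the WT level were left. The WT level of the CHG region was low for a listed CHG loss, since only 2.50% of them started lower. The nearest listed CHH loss was 1721 bp from the CHG region.

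At the other end of PSY1, a CHG region annotated to the 3' UTR (chr3:4238309-4238821, 513 bp, 19 CHG sites) had 17.2% in nrpd1 and 56.8% in WT. This was the gene's largest difference, 39.6 points, and 88.1% of all listed CHG losses were smaller. The region reached 183 bp past the annotated end of the gene. The nearest listed CHH loss was 1792 bp away.

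Both CHH losses assigned to PSY1 lay upstream of its promoter. The nearer one (chr3:4231375-4232016, 2638 to 3279 bp upstream, 126 CHH sites) had 8.24% in nrpd1 and 24.8% in WT. The farther one, 4010 to 4501 bp upstream with 102 CHH sites, had 4.69% in nrpd1 and 17.7% in WT. Each of them contained a CHG loss, but these CHG regions kept more of their methylation than the promoter and 3' UTR regions did. The nearer CHG region (9 sites) had 49.9% in nrpd1 and 76.5% in WT, and the farther one (4 sites, the fewest in any listed region) had 55.7% in nrpd1 and 79.3% in WT, so that 65.2% and 70.2% of the WT level were left. A distal CG region with 5 sites, 56 bp from the nearer CHH region, had 28.6% in nrpd1 and 51.0% in WT.

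PSY2 (Solyc02g081330, chr2:43321079-43325440, plus strand), the synthase gene of green tissue, had 2 regions, both at its transcription start. The CHH region (chr2:43320400-43321088, 689 bp, 166 CHH sites) ran from 679 bp upstream to 9 bp past the start and had 8.61% in nrpd1 and 32.2% in WT. The CHG region (chr2:43320766-43321090, 325 bp, 9 CHG sites) began 313 bp upstream, ended 11 bp past the start and had 26.4% in nrpd1 and 68.5% in WT. These were large differences for their contexts. The CHH loss of 23.6 points exceeded 87.6% of listed CHH losses, and the CHG loss of 42.0 points exceeded 91.7% of listed CHG losses. Of all 73614 CHH losses, 2857 (3.88%) spanned the transcription start of their gene as this one did. The 73614 include 42251 distal intergenic regions, which by annotation do not reach a start. The share is therefore higher among promoter and body losses. The 2 synthase genes therefore differed in the lists, with CHH loss at the start of PSY2 and none listed in the promoter of PSY1, but this difference was not tested.

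**Figure D2:**
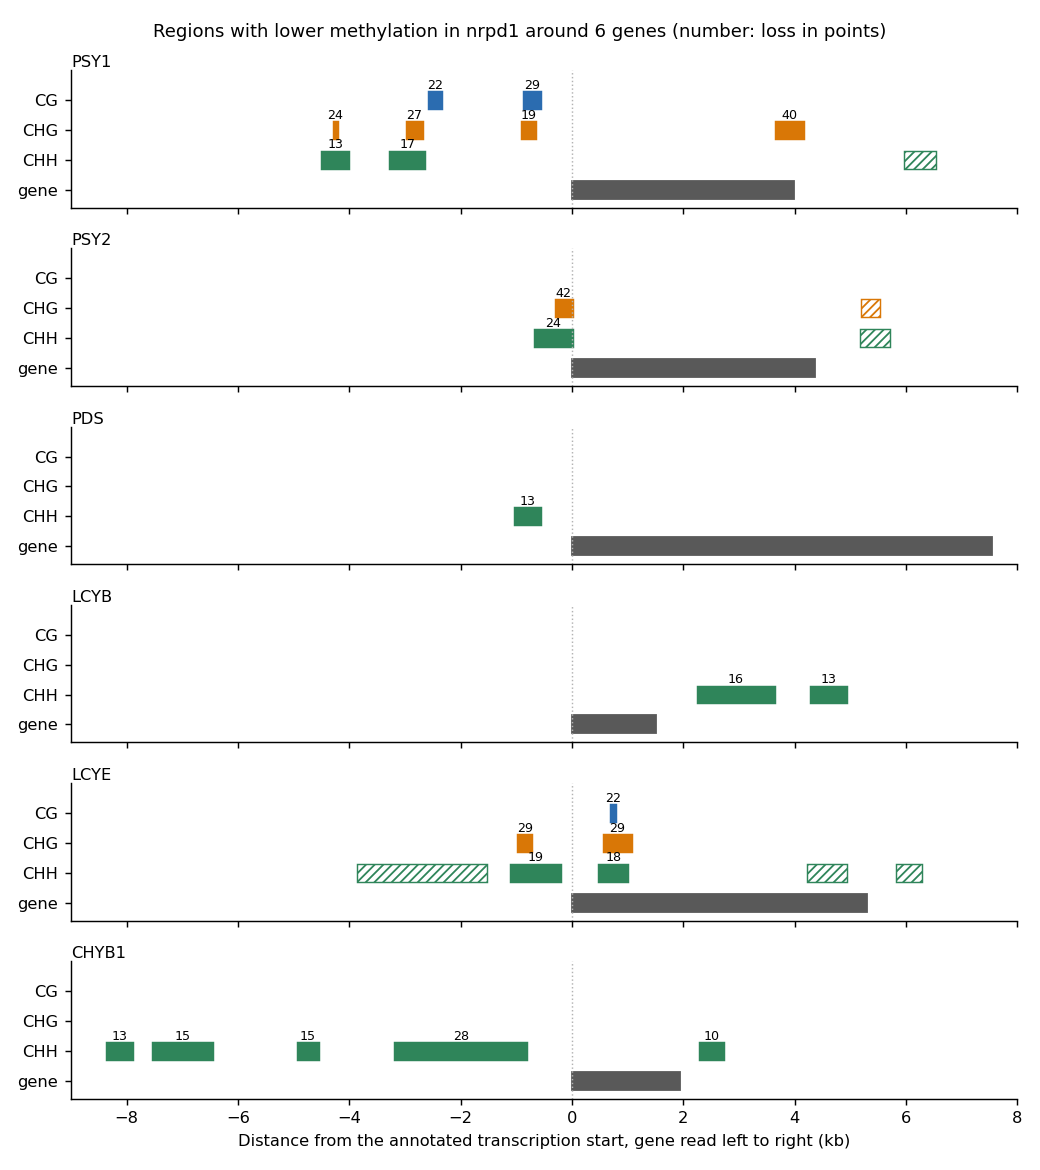
Listed regions around the 6 genes, drawn to scale against the distance from the transcription start (kb, each gene read left to right), with the gene as a grey bar and the contexts in separate rows. Filled bars are regions assigned to the gene, with the loss in points above them, and hatched bars are regions within 2 kb of the gene that the authors assigned to a neighbour; the CG and CHG bars of PSY1 at its promoter have no CHH bar beneath them.

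The desaturation and isomerisation steps are represented by 4 genes. PDS (Solyc03g123760, chr3:64958968-64966521, plus strand), which encodes phytoene desaturase, had 1 region, in its promoter. This CHH region (chr3:64957923-64958418, 550 to 1045 bp upstream, 145 CHH sites) had 6.66% in nrpd1 and 19.8% in WT. Its loss of 13.1 points was greater than 31.2% of listed CHH losses, and 33.7% of the WT level was left. No region was assigned to ZISO (15-cis-zeta-carotene isomerase), ZDS (zeta-carotene desaturase) or CRTISO (carotenoid isomerase), so 3 of the 4 genes of these steps were absent from the lists. How common such absence is among all annotated genes could not be computed.

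Absence from the lists does not show equal methylation, since a region with a difference under 10 points, with fewer than 4 cytosines or narrower than 50 bp was never listed, and coverage is unknown. The tables give no position for a gene without a region. Solyc numbers rise along the chromosome for 95.7% of consecutive named genes, so the sequence between the nearest lower-numbered and higher-numbered genes was inspected for ZISO, ZDS, CRTISO and CYCB. Whether each gene lies in its interval was not tested. The interval for ZDS (8.82 kb) held 0 listed regions. The intervals for ZISO (11.4 kb), CRTISO (15.0 kb) and CYCB (4.97 kb) held 1 CHH loss each, assigned by the authors to a neighbouring gene. The level was 6.49% in nrpd1 and 16.9% in WT in the ZISO interval. It was 9.75% in nrpd1 and 21.3% in WT in the CRTISO interval, and 5.22% in nrpd1 and 21.9% in WT in the CYCB interval.

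Lycopene cyclases stand at the branch of the pathway, and their 3 genes had 0, 2 and 5 regions. CYCB, the cyclase of chromoplasts, had no listed region. LCYB (Solyc04g040190, chr4:11700397-11701899, plus strand), the beta-cyclase of green tissue, had 2 CHH regions, both downstream of the gene in distal intergenic sequence. The nearer region (chr4:11702652-11704035, 2255 to 3638 bp past the start, 337 CHH sites) had 17.1% in nrpd1 and 33.5% in WT. The farther one, 4284 to 4944 bp past the start with 141 CHH sites, had 13.0% in nrpd1 and 26.3% in WT. Of the WT level, 51.0% and 49.6% were left, which exceeded the shares left in 89.3% and 87.6% of listed CHH losses.

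LCYE (Solyc12g008980, chr12:2334383-2339689, plus strand) encodes the epsilon-cyclase, which opens the branch to alpha-carotene and lutein. Its 5 regions formed clusters on either side of the transcription start. In the promoter, a CHH region (chr12:2333279-2334181, 202 to 1104 bp upstream, 194 CHH sites) had 8.69% in nrpd1 and 27.7% in WT. A CHG region inside it (chr12:2333398-2333671, 7 CHG sites) had 32.1% in nrpd1 and 61.4% in WT. These losses of 19.0 and 29.3 points exceeded 69.6% of listed CHH losses and 56.6% of listed CHG losses.

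Within the LCYE gene, losses in the 3 contexts overlapped. A CHH region annotated to exon 1 of 11 (477 to 1003 bp past the start, 137 CHH sites) had 6.47% in nrpd1 and 24.2% in WT. A CHG region annotated to intron 1 of 10 (chr12:2334935-2335466, 552 to 1083 bp past the start, 18 CHG sites) had 12.6% in nrpd1 and 41.5% in WT. A CG region of 108 bp inside both (chr12:2335068-2335175, 6 CG sites) had 58.5% in nrpd1 and 80.0% in WT. The share of the WT level left was thus 26.7% in CHH, 30.4% in CHG and 73.1% in CG at this place. A further CHH loss lay inside the LCYE span, 4219 to 4949 bp past the start, with 3.25% in nrpd1 and 14.4% in WT. The authors assigned it to the promoter of the next gene, so it is not among the 23.

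CHYB1 (Solyc06g036260, chr6:23586610-23588545, minus strand) encodes a beta-carotene hydroxylase, which makes xanthophylls from beta-carotene. It had 5 regions, all in CHH, and they covered 4823 bp, more than in any other of the 6 genes. The widest (chr6:23589348-23591734, 2387 bp, 504 CHH sites) ran from 803 to 3189 bp upstream of the start and was annotated to the promoter. Its level was 14.7% in nrpd1 and 42.4% in WT, a loss of 27.6 points. Among listed CHH losses 95.5% were smaller in points, 97.0% were narrower and 96.9% had a lower WT level.

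Farther upstream of CHYB1, CHH methylation was lower in nrpd1 by fewer points and a larger share of it was left. The region 4547 to 4947 bp upstream had 14.3% in nrpd1 and 29.2% in WT. The region 6443 to 7549 bp upstream had 13.9% in nrpd1 and 29.4% in WT, and the region 7893 to 8363 bp upstream had 21.3% in nrpd1 and 33.9% in WT. The share of the WT level left was 34.7% in the promoter region and 48.9%, 47.4% and 62.9% in these 3 regions, nearest first. The last share was larger than that in 98.1% of listed CHH losses. On the other side of the gene, a region 2274 to 2730 bp past the start had 4.32% in nrpd1 and 14.7% in WT. Its loss of 10.4 points was close to the smallest listed difference.

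**Figure D3:**
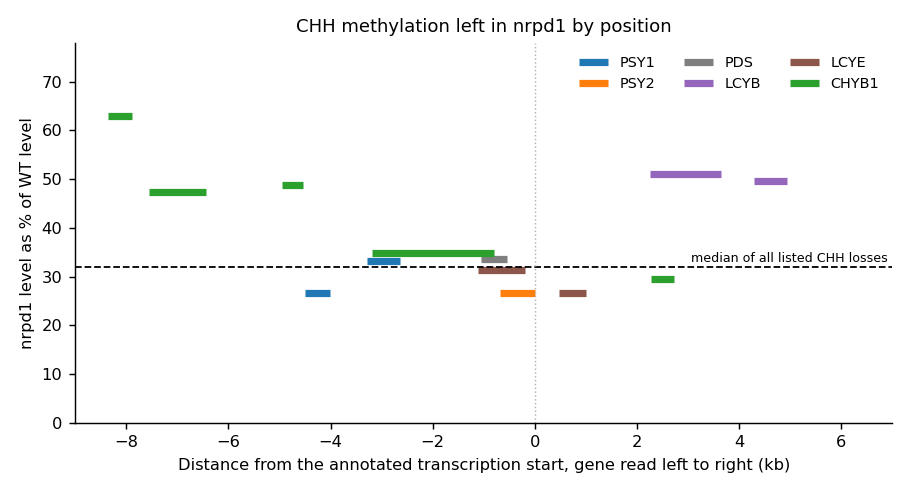
CHH methylation left in nrpd1 as a percentage of the WT level (vertical axis) for the 13 CHH regions, drawn as bars over their extent from the transcription start (kb, horizontal axis) and coloured by gene. The dashed line is the median of all listed CHH losses, 32.0%, and the bars highest above it belong to distal regions of CHYB1 and LCYB, between 47.4% and 62.9%.

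No CG or CHG region was assigned to CHYB1. Of the 27473 named genes, 243 (0.885%) had at least 5 regions that were all in CHH. Of the 1041 promoter or body CHH losses at least as wide as that of CHYB1, 237 (22.8%) overlapped no listed CG or CHG loss, as was the case here. These shares describe the lists, and CHYB1 was singled out after its values were seen.

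Taking width and size together, each region's loss in points was multiplied by its width in kb and summed over the promoter and body of a gene, so that 1 kb with a loss of 10 points counts 10. Regions were counted at full width, also where they ran past the 2 kb promoter. CHYB1 reached 66.0, more than 94.8% of the 20098 genes with a CHH loss in promoter or body. This sum rests on 1 region, which reached 3189 bp upstream. LCYE reached 26.5 (63.6% of genes lower), PSY2 16.3 (41.5%) and PDS 6.50 (13.1%), and the median gene 19.7. Regions assigned to a neighbouring gene were left out. Among them was a CHH loss of 18.7 points over 2331 bp (chr12:2330524-2332854), which reached within 2 kb upstream of LCYE. The sums and the order of LCYE and CHYB1 therefore depend on the authors' assignment. By the greatest single CHH difference, PSY2 stood above 77.1% of these genes.

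The median losses of the carotenoid genes were close to those of all listed losses in CHH and CHG. The median CHH loss was 15.5 points for their 13 regions (10.4 to 27.6) and 15.7 points for all listed CHH losses. In CHG the median was 28.8 points for 7 regions (19.3 to 42.0) and 27.9 points for all listed CHG losses. In CG it was 22.5 points for 3 regions (21.5 to 29.2) and 25.9 points for all listed CG losses. CHH regions in promoters and bodies were left with 26.7% to 34.7% of the WT level (5 regions, median 31.4%), and such regions of all genes with a median of 29.6%. The 8 distal CHH regions were left with 26.6% to 62.9% (median 48.1%), against a median of 34.4% for distal CHH losses of all genes. The 5 distal regions with the highest shares came from just 2 genes, LCYB and CHYB1, so they are not independent.

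**Figure D4:**
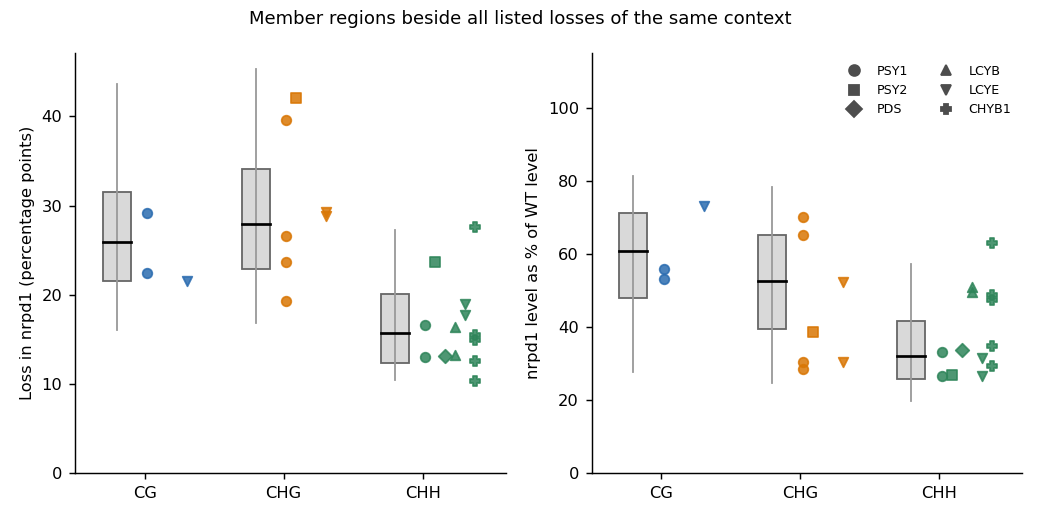
Loss in percentage points (left axis) and nrpd1 level as a percentage of the WT level (right axis) for the 23 regions, with a symbol for each gene, beside all listed losses of the same context in grey. Grey boxes span the 25th to 75th percentile with the median as a line and whiskers from the 5th to the 95th percentile. Most symbols lie within the whiskers. In CHH losses the CHYB1 promoter region lies above them at 27.6 points and its downstream region below them at 10.4 points. In CHH shares left the farthest upstream CHYB1 region lies above them at 62.9%.

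Most CHG losses of these genes coincided with a CHH loss, as they did over the whole table. Of the 7 CHG losses of these genes 5 overlapped a CHH loss, and of all listed CHG losses 75.7% did. The 2 exceptions were the PSY1 promoter and 3' UTR regions. Among the 3 CG losses, 1 lay on a CHH loss, that of LCYE, and in all of the CG list the share was 45.8%. In CHG promoter losses, 16.3% of all listed regions lay off any CHH loss, as did that of PSY1. The share off any CHH loss was 30.6% for CHG losses in 3' UTRs and 44.2% for CG promoter losses. In the other direction, 5 of the 13 CHH losses (38.5%) overlapped a CG or CHG loss, and 36.9% of all CHH losses did.

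Distal CHH regions were listed for only 3 of the genes, PSY1, LCYB and CHYB1. The 2 of them with the highest shares of CHH methylation left, LCYB and CHYB1, had the fewest named genes nearby among the genes with a region. These shares did not hold for all regions of CHYB1, as its promoter region was left with 34.7% and its downstream region with 29.4%. Within 100 kb on either side CHYB1 had 10 other named genes and LCYB 11, against a median of 17 over named genes (quartiles 8 and 21). Both counts were common, since 28.3% and 30.6% of named genes had fewer. PSY1, the only other gene with distal CHH regions, had 20, so the contrast rests on 3 genes. PSY2, PDS and LCYE, which have no distal share to compare, had 13 to 21. Along their chromosomes these genes had no common position. CHYB1 lay at 49.9% of the span of listed regions on chromosome 6 and LCYB at 18.2% on chromosome 4. The others lay at 6.49% (PSY1) and 99.5% (PDS) on chromosome 3, 81.1% on chromosome 2 (PSY2) and 3.51% on chromosome 12 (LCYE). Gene density was counted only over genes with a listed region, and its part in the shares left was not tested.

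Other genes of the pathway were taken from a list of 18 identifiers for enzymes of precursor supply, other synthase, cyclase and xanthophyll steps and carotenoid cleavage. It had 112 regions in 17 of the genes, of which 69 were in CHH, 36 in CHG and 7 in CG. They were 110 losses and 2 gains. Over all listed regions of all contexts 90.6% were losses. Both gains were in CG, where 5 of the 7 regions were losses, against 67.7% of all listed CG regions. All 69 CHH and 36 CHG regions were losses, against 95.8% and 88.0% of all listed regions of these contexts. Of the 17 genes with a region, CHH losses in promoter or body were listed for 16, CHG losses for 10 and CG losses for 2, and 1 had all 3. Over all named genes these shares were 73.2% for CHH, 43.7% for CHG, 13.4% for CG and 8.25% for all 3. The median loss was 16.3 points in CHH (10.03 to 33.6), 28.8 points in CHG (18.4 to 60.8) and 23.4 points in CG (16.9 to 41.8). The tables do not pair these identifiers with gene names, and the list was put together from general knowledge of the pathway, so its members are not named.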

How the data were processed

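Bisulfite sequencing of embryo DNA from 3 nrpd1 and 3 WT libraries was used, grouped by sample titles. Per the submitters' processing notes, the tools included Trim Galore 0.6.7 and Bismark 0.24.0. Not given in the sources used here are the region caller with its settings, the tool for annotation, the rate of conversion and the read depth. The assembly, read from the sequence names, is SL4.0. The authors deposited, per the file headers, the mean methylation of each listed region as a fraction per genotype, printed here as a percentage. The authors' region statistic, a score without fixed range, served only to select the 50% of regions with larger values. Incomplete conversion would raise apparent methylation, mostly in CHH.

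Gene names are those of the selection rule, since the tables hold identifiers only. Regions were assigned to genes by the authors' gene column, and promoter or body means any annotation other than distal intergenic or downstream. Overlap meant at least 1 shared bp. Because each region has 1 mean per genotype, no test was made, and counts and medians are set beside those of all listed regions or named genes. All 10 genes are named, each with its promoter and body regions, and the region with the greatest difference and the widest of each context are given with coordinates. Genes and lists were chosen with earlier results of these data known. Overlap counting was tested on simulated data. Computation used Python 3.11.15, pandas 2.3.3, numpy 2.4.6 and scipy 1.17.1.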

Additional observations from a re-analysis of the deposited data

How the results depend on the processing

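All 23 regions of the genes were losses, so their share was bound to stay at 100% under any filter. The filters were a minimum difference of 20 points, the 50% of regions with the larger authors' statistic, and at least 10 cytosines. Counts depended on these limits. With a minimum of 20 points, 2 CHH losses were left of 13, and 2 genes with a CHH loss in promoter or body of 4, namely PSY2 and CHYB1. With the larger statistics, 6 CHH, 3 CHG and 1 CG losses were left, and 1 gene with a CG loss in promoter or body. With at least 10 cytosines, 3 of 7 CHG and 1 of 3 CG losses were left. Counting regions within 200 bp, 2 of 3 CG losses coincided with a CHH loss. Ranked by the greatest single CHH difference in place of the sum, PSY2 stood above 77.1% of genes, PDS above 16.5%, LCYE above 51.6% and CHYB1 above 90.8%. The other 43 alternative values stayed within their limits, 1.5 times for counts and a binomial interval set at 95% for shares and medians. Among them were those with weighting by width or by cytosines and with all regions within 2 kb of a gene. Part of the 43 could not move. Filters cannot change a share of 100% or a count of 0 gains. For the CG and CHG medians the interval was the full range of the 3 and 7 regions, which no weighted mean can leave. With 3 regions that range is also not a 95% interval. For the 4 genes without a region the 2 kb alternative could not be computed, as their positions are unknown. No library could be left out, since the tables hold 1 mean per genotype. No paired analysis was possible because no value belongs to a single library. Depth is unknown, and CHG and CG regions of 4 to 9 cytosines rest on few sites.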
